A study of Mus musculus with 22 samples.

Results

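Proteasome subunit genes were taken as all genes of the expression table whose symbol begins with Psma, Psmb, Psmc, Psmd, Psme, Psmf or Psmg and then a digit, without Psmb8, Psmb9 and Psmb10, which encode the inducible catalytic subunits of the immunoproteasome. The rule gave 47 genes of the 15725 in the table. By role they were 7 genes of the outer alpha rings and 7 of the inner beta rings of the 20S core particle, 6 ATPases, 3 other base subunits and 8 lid subunits of the 19S regulatory particle, 5 activator or inhibitor genes, 7 assembly chaperones and 4 further genes. The first 5 of these roles hold 31 genes and are called 26S subunits here. They are not the whole complex, since the lid subunit gene Sem1 does not match the rule and is counted below with the associated factors. Of the 4 further genes, Psma8 encodes an alpha subunit of the testis, Psmb11 a beta subunit of the thymus and Psme2b a near copy of Psme2, while Psmc3ip is a partner of meiotic recombinases that shares the naming scheme and is no proteasome subunit.

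Expression was measured by RNA sequencing of polyadenylated RNA in 22 libraries of primary microglia, the macrophages of the brain, shaken from mixed glia of the cortex of C57BL/6 mice aged 1 to 3 days. All cells received lipopolysaccharide (LPS), a bacterial cell wall component, at 100 ng/ml for 24 h, so no level without LPS is known here. By their labels 3 libraries had LPS alone, 5 also had 10 nM bafilomycin A1 (Baf A1) and 6 also had 50 nM CLA, while 5 came from cells transfected for 48 h with 50 nM siRNA against Atg5 (siAtg5) and 3 are labelled dNC, the comparator of siAtg5 in the series text. Neither CLA nor dNC is explained in the labels, which also give no dose of a control siRNA. Bafilomycin A1 blocks the proton pump of lysosomes, and Atg5 is needed to form autophagosomes, so both touch the lysosomal route of protein degradation that runs beside the proteasome.

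The proteasome degrades proteins that carry ubiquitin chains. Its core is a barrel of stacked alpha and beta rings in which Psmb5, Psmb6 and Psmb7 supply the cutting sites, and the 19S particle binds the ubiquitin chain, removes it, unfolds the protein and feeds it into the barrel. The genes of the complex are known to be transcribed together under NRF1 (gene Nfe2l1) when proteasome activity is short, and in activated macrophages interferon adds the immunoproteasome subunits and the PA28 activator.

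Values are FPKM, fragments scaled by transcript length and library depth, so levels can be compared between genes. No read counts were used, so the depth behind each value is unknown. A change is given as a difference of log2(FPKM + 1), which understates changes of low genes, and a gene was called higher or lower at a limma adjusted p under 0.05 over all 11070 genes tested. Of the 47 genes 46 passed the filter of 1 FPKM in 3 libraries, and Psmb11 did not, with a highest value of 0.08 FPKM.

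The siAtg5 libraries differed from the other 17 in several ways that bear on every comparison with them. Their median gene was at 4.53 to 4.8 FPKM (2.62 to 3.25 elsewhere), and the number of genes at or above 1 FPKM was 10752 to 10908 (9112 to 9571 elsewhere). Summed over marker lists, astrocyte genes reached 280.1 to 326 FPKM with siAtg5 and at most 19.3 in any other library, neuron genes 53.8 to 67.3 against at most 16.1, oligodendrocyte lineage genes 33.7 to 36.9 against at most 18.2, and fibroblast, mural and endothelial genes 93.7 to 126 against at most 30.7. Microglia genes summed to 3148 to 3297 FPKM with siAtg5, 2479 to 2604 with dNC and 3119 to 3499 with LPS alone. The sums were 3416 to 3487 with Baf A1 and 3692 to 3878 with CLA, far above every other marker list in each group. These sums hide members that moved apart. Of the 10 genes 5 rose and 4 fell with Baf A1, and 3 rose and 3 fell with CLA, each against LPS alone. With dNC against LPS alone 3 rose and 5 fell, with siAtg5 against LPS alone 6 rose and 3 fell, and with siAtg5 against dNC 8 rose and 2 fell. Border macrophage and monocyte genes, mostly Pf4, summed to 25.4 to 33 FPKM with siAtg5 and 16.4 to 59 with dNC. With LPS alone they summed to 106 to 119. Of the 4 tested, 3 fell and 0 rose against LPS alone with siAtg5 and likewise with dNC. Between siAtg5 and dNC 2 rose and 2 fell. Neutrophil and lymphocyte genes summed to 129.5 to 633 FPKM with dNC and at most 34.6 elsewhere, which was nearly all S100a8 (129 to 632 with dNC), while Camp, the other gene of this list tested, was at 0.12 to 0.36 with dNC against 1.18 to 1.57 with LPS alone. The targeted gene Atg5 was at 12.6 to 13.5 FPKM with siAtg5, below the 21.4 to 24.3 with dNC (log2 change of -0.73, SE 0.048, adjusted p = 4.05e-12) and the 19.8 to 20.4 with LPS alone. LPS replicate 3, dNC replicate 1 and CLA replicate 2 lay apart from their groups, and their proteasome genes differed from those of their mates by a median of 0.10 to 0.18 (higher), 0.16 to 0.17 (higher) and 0.08 to 0.11 (lower) on the log2 scale.

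With LPS alone the microglia expressed all 31 of the 26S subunit genes matched by the rule. Group means ran from 47.1 FPKM for the lid gene Psmd11 to 177 FPKM for the alpha gene Psma6, a 3.76-fold span. Psma6 was the highest of the 31 in all 5 groups. In the beta ring Psmb2, at 134 ± 16.3 FPKM (SD, n = 3), and Psmb6, at 128 ± 13.5, led with LPS alone and did not differ beyond their spread, and Psmb1 was lowest at 57.3 ± 4.91. Among the ATPases, which unfold the substrate, Psmc1 was highest at 114 ± 6.05 FPKM and Psmc6 lowest at 55.1 ± 1.29. In the lid Psmd8 stood highest at 104 ± 12.1 FPKM, with Psmd7 next at 74.8 ± 3.15 and the other 6 genes between 47.1 and 55.3. The PA28 activator genes lay above the whole core, with Psme2 at 385 ± 27 and Psme1 at 353 ± 31.8 FPKM, while the PA28 gamma gene Psme3 was at 37.5 ± 1.41, the PA200 gene Psme4 at 31.2 ± 2.67 and the inhibitor gene Psmf1 (PI31) at 15.9 ± 1.05. Assembly chaperones were low, from 6.07 ± 0.775 FPKM for Psmg1 to 46.1 ± 1.36 for Psmd10. The testis gene Psma8 reached 0.34 FPKM and Psmc3ip 0.707.

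**Figure D1:**
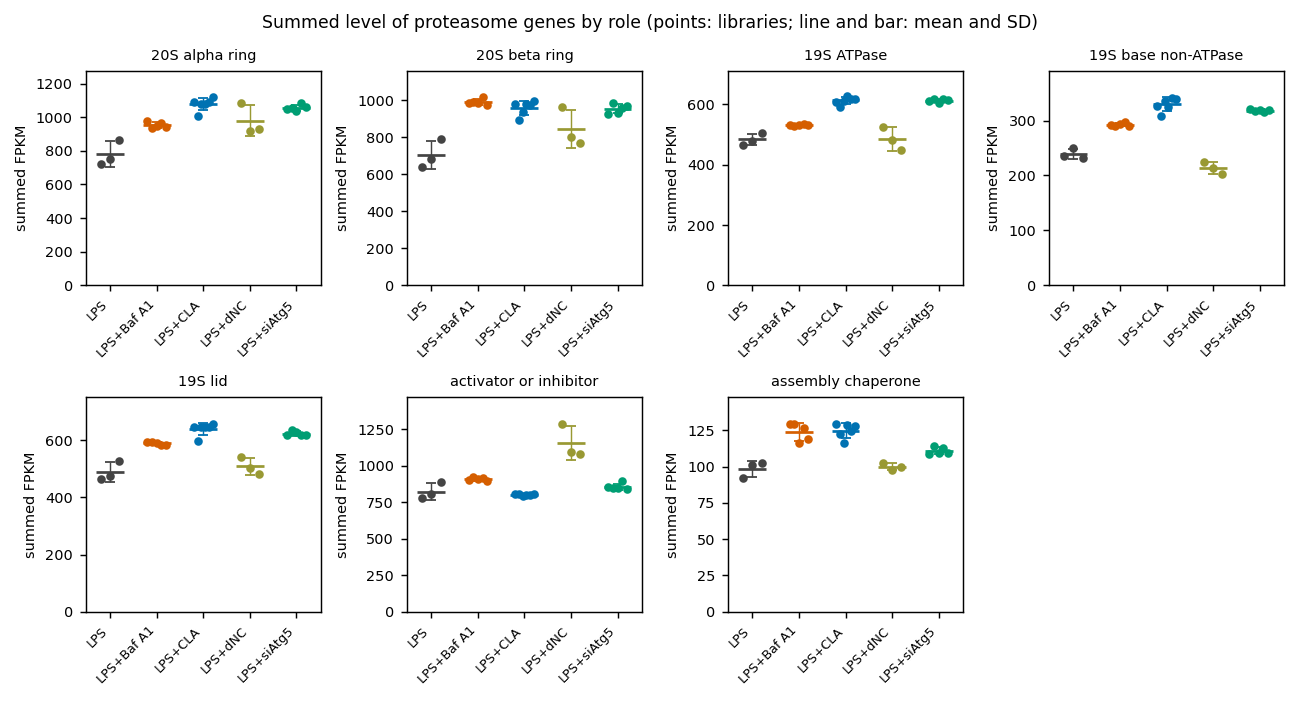
Summed FPKM of the genes of each role (vertical axes, from 0) in every library of the 5 groups (horizontal axes), with a point for each library and a line and bar for the mean and SD. Alpha ring sums ranged from 721 to 866 FPKM with LPS alone to 1009 to 1119 with CLA, and activator sums were highest with dNC, at 1080.2 to 1286.

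Summed over these 31 genes, the 26S subunit transcripts came to 2524 to 2919 FPKM with LPS alone. The sum was 3319 to 3396 FPKM with Baf A1 and 3398 to 3727 with CLA, both without overlap with LPS alone, 3519 to 3604 with siAtg5 and 2834 to 3342 with dNC, which overlapped LPS alone. The FPKM of all genes together also differed between groups, at 469750 to 506565 with LPS alone, 517259 to 525127 with Baf A1 and 508534 to 517064 with CLA. It was 475285 to 482854 with siAtg5 and 556496 to 575125 with dNC. The part of these totals in the 26S sums was not tested. All are bulk values, in which fewer cells of a type and less RNA per cell cannot be told apart.

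With Baf A1 the proteasome genes rose more often than they fell. At the adjusted threshold 26 of the 46 were higher than with LPS alone and 4 were lower, where 32.7% of all genes tested were higher and 25.1% lower. The median change was 0.19 over the proteasome genes and 0.04 over all genes. In 23 of them the 2 groups did not overlap and Baf A1 was above, and in 4 it was below, beside 30.8% and 21.9% of all genes. With CLA 38 were higher than with LPS alone and 3 lower, beside 40.4% and 22.6% of all genes, with a median change of 0.36 against 0.09. Groups did not overlap for 32 genes with CLA above and 3 with CLA below, beside 32.7% and 18.9% of all genes. Both comparisons use the same 3 LPS libraries. No called proteasome gene changed direction in either one under quantile normalization or median-of-ratios scaling, which divides each library by the median ratio of its genes to their means. Median-of-ratios scaling and quantile normalization left 21 and 23 genes higher with Baf A1 and 28 and 35 with CLA. Among all genes called with CLA the share that was higher moved from 64.1% to 49.4% and 54% under these scalings. The count with Baf A1 was 20 without LPS replicate 1 and 34 without LPS replicate 3, beside 3238 and 3433 of all genes. Without the 3 libraries that lay apart it was 35 with Baf A1 and 41 with CLA, beside 3768 and 4581 of all genes. Of 4 border macrophage and monocyte markers tested 1 rose and 1 fell with Baf A1, and 1 rose and 2 fell with CLA, with Pf4 rising (1.08 and 1.29) and Mrc1 falling (-1.11 and -1.21) in both. The list, most of it Pf4, summed to 188 to 245 FPKM with Baf A1 and 162 to 285 with CLA against 106 to 119 with LPS alone. Of the fibroblast, mural and endothelial markers 4 of 8 rose and none fell with each treatment, at sums of 18.3 to 25.8 and 16.6 to 30.7 FPKM against 13.4 to 17.7. Of the astrocyte markers 3 of 10 rose and 1 fell with Baf A1, and 2 rose and 4 fell with CLA, at sums of 16.6 to 19.3 and 10 to 14.4 FPKM against 8.17 to 12.6. Of the neuron markers 3 of 6 fell with Baf A1 and 6 of 6 with CLA, at sums of 7.08 to 10.3 and 0.86 to 7.13 against 12.4 to 16.1. Of the oligodendrocyte lineage markers 2 of 6 rose and 1 fell with Baf A1, and 2 rose and 2 fell with CLA. Their sums were 14.6 to 18.2 and 14.1 to 16.9 FPKM against 14.9 to 15.5. Mog, a marker of this list below the filter, was at 0 in all libraries of both treatments and at 0.05 to 0.18 FPKM with LPS alone. The part of these cell types in the changes was not tested.

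**Figure D2:**
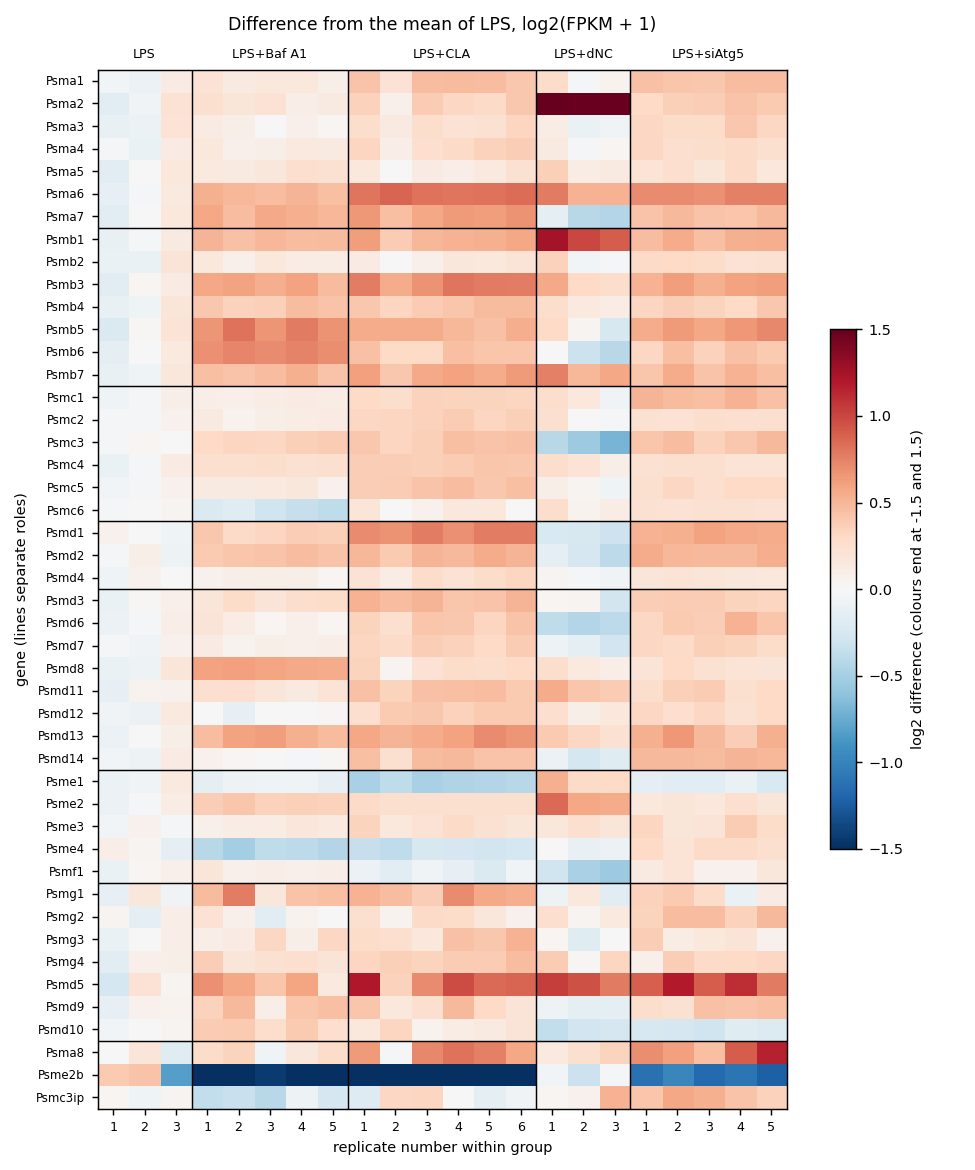
Difference of each library (columns, by group and replicate) from the mean of LPS alone in log2(FPKM + 1) for the 46 proteasome genes that passed the filter (vertical axis, grouped by role), with red for higher and blue for lower and colours ending at -1.5 and 1.5. Psme2b is blue in all Baf A1, CLA and siAtg5 libraries, Psma2 is red in the 3 dNC libraries (1.56), and the red of many siAtg5 cells depends on scaling, since the median change of the proteasome genes against LPS alone was 0.33 as deposited and -0.02 with median-of-ratios scaling.

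The beta ring showed the largest median change of the roles with Baf A1. Of its 7 genes 6 rose, by a median over the 7 of 0.48, and 6 rose with CLA, by a median of 0.52. Psmb5, which carries the chymotrypsin-like site, stood at 76.5, 90.2 and 103 FPKM in the LPS libraries and at 142, 157, 141, 154 and 143 with Baf A1. All 5 Baf A1 libraries were above the LPS libraries, a log2 change of 0.72 (SE 0.088, adjusted p = 3.55e-07). With CLA Psmb5 was at 122 at the lowest, 131 at the median and 132 at the highest, also above LPS alone in every library (0.53, adjusted p = 1.16e-05). Psmb6, the gene of the caspase-like site, was at 115, 127 and 142 FPKM with LPS alone and 206, 213, 208, 214 and 207 with Baf A1. The Baf A1 libraries of Psmb6 were nearly level with each other and all above every library of the other 4 groups, with a change of 0.71 (SE 0.071, adjusted p = 1.62e-08) against LPS alone. With CLA Psmb6 was at 157 at the lowest, 171 at the median and 174 at the highest, a rise of 0.39 (adjusted p = 3.82e-05). Psmb7, the gene of the trypsin-like site, was at 73.8, 76.4 and 89.9 FPKM with LPS alone, 109, 107, 110.3, 116 and 107 with Baf A1 and, with CLA, 106 at the lowest, 120 at the median and 125 at the highest. Neither treated group of Psmb7 overlapped LPS alone, and the changes were 0.46 (SE 0.065, adjusted p = 2.47e-06) with Baf A1 and 0.56 (SE 0.063, adjusted p = 5.34e-08) with CLA. Psmb3, a structural subunit without a cutting site, had 86, 97.5 and 104 FPKM with LPS alone and 143, 146, 140.3, 145 and 134 with Baf A1. With CLA the values of Psmb3 were 141 at the lowest, 163 at the median and 168 at the highest, again apart from LPS alone, and its changes were 0.56 (SE 0.069, adjusted p = 3.51e-07) and 0.73 (SE 0.066, adjusted p = 2.57e-09). Psmb1 and Psmb4, both structural, rose by 0.48 and 0.40 with Baf A1 and by 0.52 and 0.41 with CLA. The structural gene Psmb2 was not called with either, at 145 and 145 FPKM against 134. Psmb3, Psmb5 and Psmb7 share 55.8%, 54.1% and 28.1% of their transcript sequence with other annotated genes, for Psmb7 with Nek6 alone. Reads could be split between the genes that share sequence, so the values of Psmb3, Psmb5 and Psmb7 are uncertain.

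**Figure D3:**
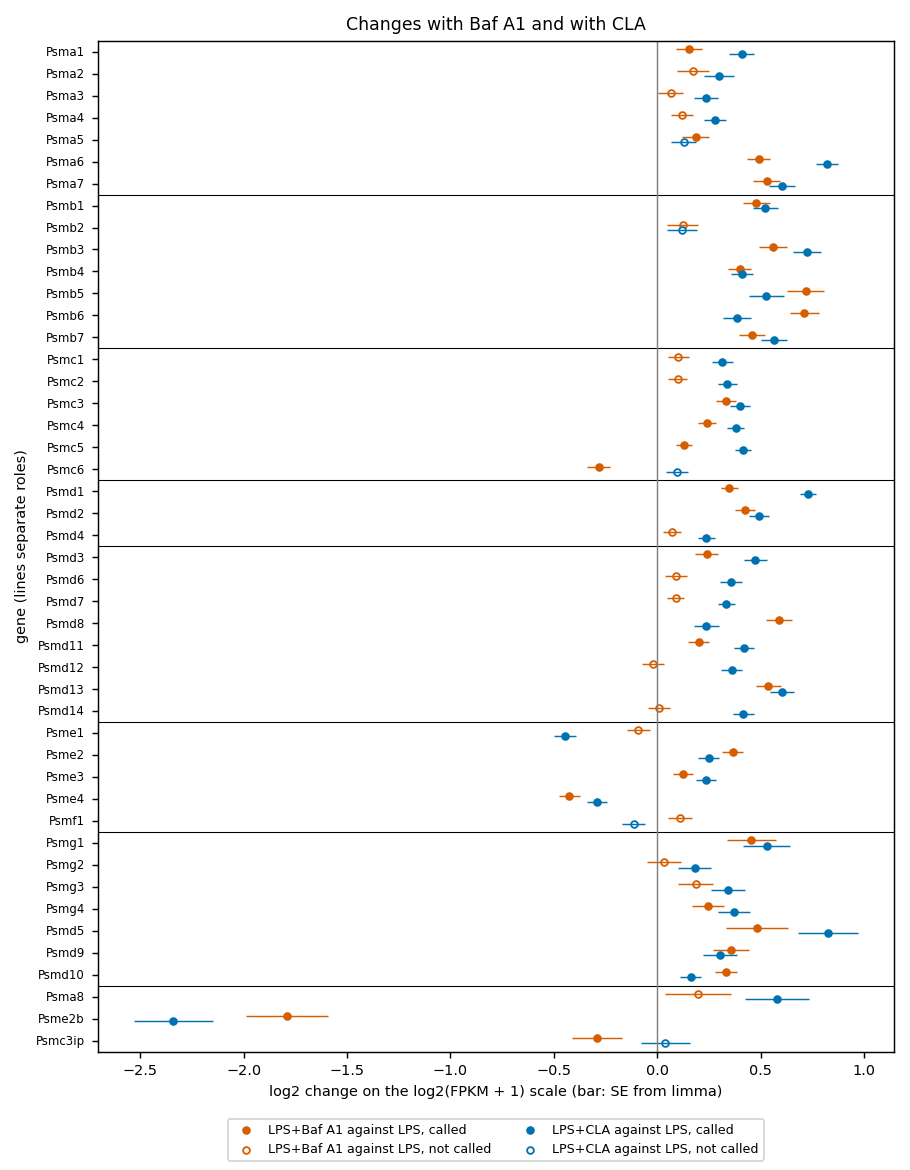
Log2 change of each proteasome gene (vertical axis, grouped by role) with Baf A1 and with CLA against LPS alone on the log2(FPKM + 1) scale (horizontal axis), with bars for the SE from limma and filled points for adjusted p under 0.05. Most points lie to the right of 0, Psme2b lies far to the left at -1.79 and -2.34, and no filled point changes side under the scalings tried.

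Promoter sequence was read for the 39 of the 47 genes matched in the RefSeq promoter table used (GRCm38.p6), in windows from 250 bases before to 50 bases after the annotated start.
No source used here names the genome build behind the deposited values.
Patterns were searched on both strands, and no pattern contains another.
The antioxidant response element core TGACNNNGC, to which NRF1 and NRF2 bind with small MAF proteins, occurred in the windows of 6 of the 39 genes (15.4%) and of 14% of all genes with a window, and the 6 were Psmb5, Psmb6, Psmc6, Psmd9, Psmd12 and Psme4.
The CCAAT box occurred in 14 (35.9%) against 41.1%.
The interferon-stimulated response element pattern (GAAA, any 2 bases, GAAA) occurred in 5 (12.8%) against 3.99%, in Psmb3, Psmd4, Psmd9, Psme1 and Psmg4.
The 170 bases before the start are shown for Psmb5 (chr14:54617996-54618165, minus strand) and Psmb6 (chr11:70525187-70525356, plus strand), the largest rises with Baf A1, for Psmb3 (chr11:97703264-97703433, plus strand), which rose with both treatments, and for the chaperone gene Psmd9 (chr5:123228020-123228189, plus strand), which holds both kinds of response element. Capitals mark the matches.
Psmb5: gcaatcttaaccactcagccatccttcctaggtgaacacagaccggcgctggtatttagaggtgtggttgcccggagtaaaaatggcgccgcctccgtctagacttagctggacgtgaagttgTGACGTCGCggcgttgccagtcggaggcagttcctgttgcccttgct
Psmb6: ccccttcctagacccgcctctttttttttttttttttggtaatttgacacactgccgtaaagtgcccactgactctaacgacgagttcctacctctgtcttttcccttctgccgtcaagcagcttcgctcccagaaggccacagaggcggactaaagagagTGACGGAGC
Psmb3: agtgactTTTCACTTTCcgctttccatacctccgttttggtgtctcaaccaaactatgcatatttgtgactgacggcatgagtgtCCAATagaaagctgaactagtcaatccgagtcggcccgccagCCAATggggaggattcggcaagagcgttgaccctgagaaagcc
Psmd9: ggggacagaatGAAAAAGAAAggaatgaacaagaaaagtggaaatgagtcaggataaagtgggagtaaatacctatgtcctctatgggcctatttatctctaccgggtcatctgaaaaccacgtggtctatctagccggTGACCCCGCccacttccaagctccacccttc
The TGACNNNGC match begins 47 bases before the start in Psmb5, 9 in Psmb6 and 31 in Psmd9.
In Psmb3 the CCAAT boxes begin 85 and 43 bases before the start and the interferon pattern, on the opposite strand, 163 bases before it, while in Psmd9 that pattern begins 159 bases before the start.
Among the 6 genes with the antioxidant pattern Psmb5, Psmb6 and Psmd9 rose with Baf A1, Psmc6 and Psme4 fell, and Psmd12 was not called.
A match in these letters is a description and no measured binding.

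In the alpha ring, whose subunits gate the entry to the barrel, 4 of 7 genes rose with Baf A1 and 6 with CLA, and none fell with either. Psma6 had 161, 175 and 195 FPKM with LPS alone and 255, 249, 243, 253 and 242 with Baf A1. With CLA it reached 308 at the lowest, 310.3 at the median and 324 at the highest. The 3 groups of Psma6 did not overlap, with changes against LPS alone of 0.49 (SE 0.055, adjusted p = 9.51e-08) and 0.82 (SE 0.053, adjusted p = 7.33e-12). Psma7 rose from 126 ± 14.1 FPKM (SD, n = 3) to 181 ± 6.28 (n = 5) with Baf A1 and 191 ± 10.3 (n = 6) with CLA, changes of 0.53 and 0.60. Psma1 rose by 0.15 and 0.41, and Psma5 by 0.19 with Baf A1 (adjusted p = 0.0159), a call that was lost with median-of-ratios scaling (0.13) and without LPS replicate 1, as was that of Psma1 with Baf A1 (0.09 with that scaling, and without LPS replicate 1 or 2). Psma5 shares 55.4% of its transcript sequence with other annotated genes and is uncertain for that reason, and Psma3, Psma4, Psmd2, Psmg3 and Psmc3ip share 21.8% to 27.1%. Psma2, Psma3 and Psma4 rose with CLA by 0.30, 0.24 and 0.28, and each of these calls was lost with median-of-ratios scaling (0.16, 0.09 and 0.14).

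In the 19S particle 9 of 17 genes rose and 1 fell with Baf A1, while 16 rose and none fell with CLA. The lid gene Psmd8, needed for lid assembly, was at 96.5, 98 and 118 FPKM with LPS alone and at 158, 159, 157, 154 and 154 with Baf A1. Its Baf A1 libraries were above those of all other groups, a change of 0.59 (SE 0.063, adjusted p = 4.76e-08) against LPS alone. With CLA Psmd8 was at 106 at the lowest, 125 at the median and 131 at the highest and overlapped LPS alone (0.24, adjusted p = 0.00174, and 0.10, no longer called, with median-of-ratios scaling). Psmd13, another lid gene, rose from 51.1 ± 3.18 to 74.7 ± 3.91 and 78.2 ± 4.08 FPKM. Of the structural lid genes Psmd3 (0.24) and Psmd11 (0.20) also rose with Baf A1, whereas Psmd6 (0.09), Psmd7 (0.09) and Psmd12 (-0.02) were not called. With CLA these 5 rose by 0.48, 0.42, 0.36, 0.34 and 0.36 in the same order. Psmd1, a scaffold of the base, had 51.1, 49 and 46.7 FPKM with LPS alone and 65, 59.9, 61.6, 63.5 and 63 with Baf A1. Its CLA values were 78.9 at the lowest, 82 at the median and 84.2 at the highest, above every other library of the series. The changes of Psmd1 were 0.35 (SE 0.04, adjusted p = 1.18e-07) and 0.73 (SE 0.039, adjusted p = 2.21e-13). Psmd2, the other scaffold, which docks ubiquitin shuttle proteins, rose by 0.43 and 0.49. The ubiquitin receptor gene Psmd4 was at 93.6 FPKM with Baf A1 against 89, not called, and rose by 0.24 with CLA, a call lost with median-of-ratios scaling (0.09). Psmd14, which encodes the deubiquitinase that strips the chain, was at 53.6, 52.3 and 60 FPKM with LPS alone and 57.7, 55.8, 54.9, 54 and 55.7 with Baf A1, overlapping and not called (0.01, adjusted p = 0.884). With CLA Psmd14 stood at 65.4 at the lowest, 75.2 at the median and 77.8 at the highest, all above both other groups (0.42, adjusted p = 2.43e-07). Of the ATPases Psmc3, Psmc4 and Psmc5 rose with Baf A1, by 0.33, 0.24 and 0.13 (for Psmc5 not called with median-of-ratios scaling, at 0.07, or without LPS replicate 1), and those 3 with Psmc1 and Psmc2 rose with CLA, by 0.32 to 0.42. Psmc6 was the exception, with 54, 54.7 and 56.5 FPKM in LPS libraries and 47.4, 48.3, 44.7, 43.2 and 42.1 with Baf A1. All Baf A1 libraries of Psmc6 were lower, a change of -0.28 (SE 0.054, adjusted p = 0.000107), and with CLA it was not called at 59 FPKM.

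The activators did not move as one. Psme2, which encodes the beta subunit of PA28, had 361, 381 and 414 FPKM with LPS alone and 497, 512, 487, 493 and 489.8 with Baf A1. With CLA Psme2 was at 454 at the lowest, 456 at the median and 470.2 at the highest. Both treated groups were above LPS alone, with changes of 0.36 (SE 0.052, adjusted p = 3.31e-06) and 0.25 (SE 0.051, adjusted p = 0.000175), of which the second was not called with median-of-ratios scaling (0.11). Psme1, the alpha subunit of the same ring, was at 331, 338 and 389 FPKM with LPS alone and 321, 332, 337, 337 and 322 with Baf A1, which overlapped (-0.09, adjusted p = 0.162). The CLA libraries of Psme1 held 250.5 at the lowest, 257 at the median and 269 at the highest, all below those of every other group (against LPS alone -0.45, SE 0.053, adjusted p = 1.67e-07). The ratio of Psme1 to Psme2 was 0.914 ± 0.0256 (SD, n = 3) with LPS alone, 0.666 ± 0.021 (n = 5) with Baf A1 and 0.564 ± 0.0203 (n = 6) with CLA. Psme2 shares 54.9% of its sequence with other genes, so its part of this ratio is uncertain. Psme3, the gene of a nuclear activator, was at 36.4, 39.1 and 36.9 FPKM with LPS alone, 39.5, 40.5, 40.5, 42.4 and 41.6 with Baf A1 and, with CLA, 42 at the lowest, 43.9 at the median and 47.6 at the highest. The groups of Psme3 did not overlap with LPS alone, and its changes were small, 0.12 (SE 0.049, adjusted p = 0.0326) and 0.24 (SE 0.047, adjusted p = 0.000142), with both calls lost under median-of-ratios scaling (0.07 and 0.10). Psme4, the gene of PA200, had 33.4, 32 and 28.3 FPKM with LPS alone and 23.2, 21.7, 23.7, 23.6 and 22.8 with Baf A1. With CLA the values of Psme4 were 23.8 at the lowest, 25.7 at the median and 26.3 at the highest. Both groups lay below LPS alone, with changes of -0.42 (SE 0.052, adjusted p = 3.08e-07) and -0.29 (SE 0.05, adjusted p = 2.51e-05), against the direction of most subunits. The inhibitor gene Psmf1 was not called with either, at 17.2 and 14.6 FPKM against 15.9.

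**Figure D4:**
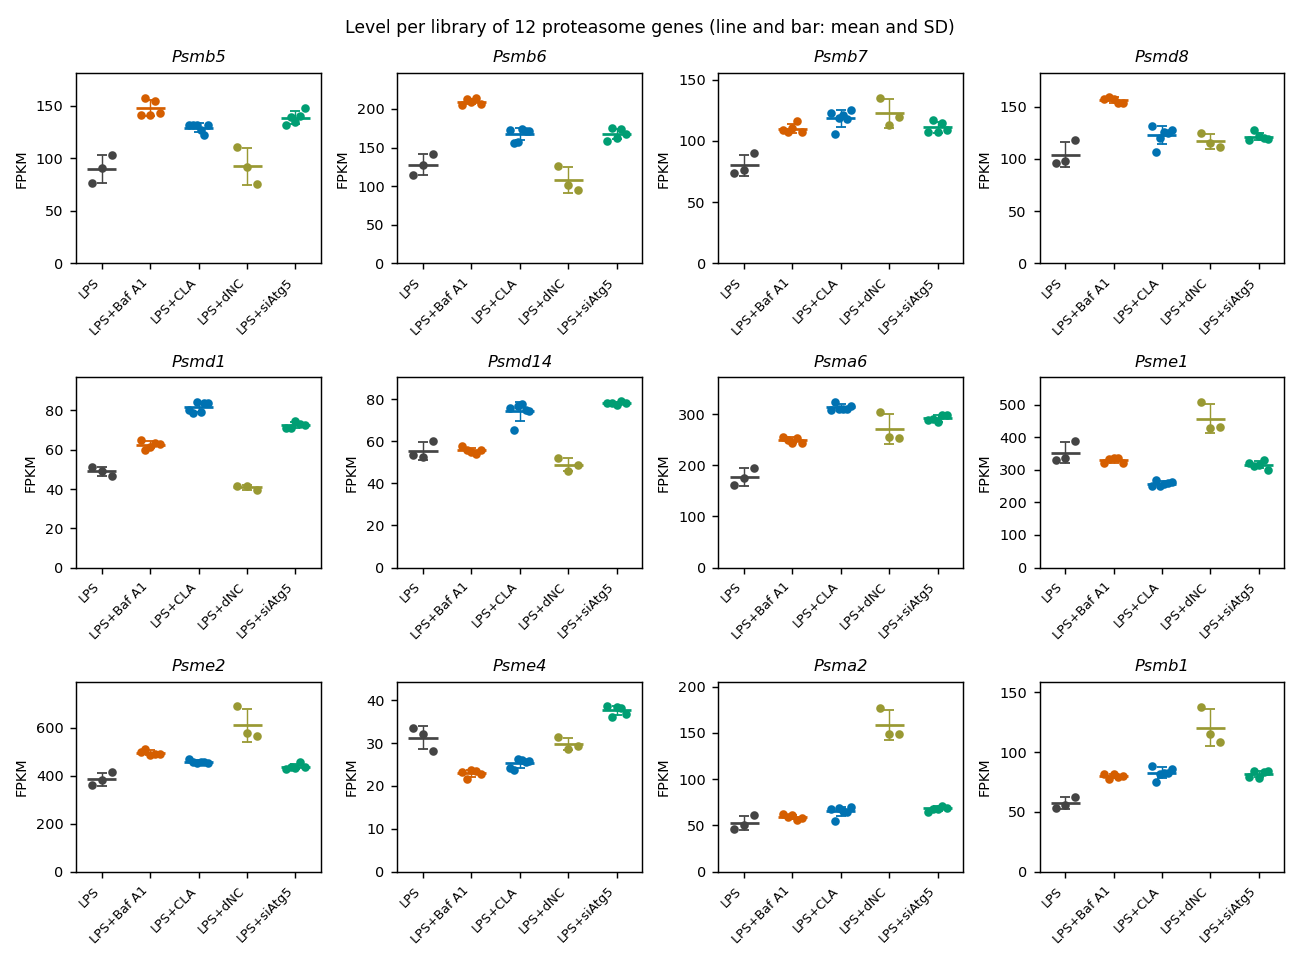
FPKM (vertical axes, from 0) of 12 proteasome genes in every library of the 5 groups (horizontal axes), with a line and bar for the mean and SD. Psmb6 and Psmd8 are highest with Baf A1, Psmd1 with CLA, and Psma2, Psmb1, Psme1 and Psme2 with dNC, where Psma2 reached 149 to 177 FPKM against 46.7 to 71.4 in all other libraries.

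All 7 assembly chaperones rose with CLA and 5 with Baf A1, the other two being Psmg2 and Psmg3. Psmd5, which holds ATPases of the unfinished base, was at 6.72, 9.77 and 8.56 FPKM with LPS alone and, with CLA, 10.8 at the lowest, 15.8 at the median and 20.4 at the highest. The groups did not overlap, although the 6 CLA libraries of Psmd5 spread widely, a change of 0.83 (SE 0.15, adjusted p = 3.42e-05). With Baf A1 it was at 13.9, 12.8, 11.3, 13 and 9.24 and overlapped LPS alone (0.48, adjusted p = 0.00836, and 0.0818 without LPS replicate 1). Psmg1, a chaperone of the alpha ring, rose from 6.07 ± 0.775 to 8.74 ± 1.45 and 9.18 ± 0.801 FPKM, and Psmd10, the base chaperone gankyrin, rose from 46.1 ± 1.36 to 58.4 ± 2.94 and 51.8 ± 3.41. Psmg4, which works in alpha ring assembly with Psmg3, rose by 0.25 with Baf A1, not called with median-of-ratios scaling (0.19) or without LPS replicate 1, and by 0.37 with CLA, where Psmg3 rose by 0.34. The calls of Psmg2, Psmd9 and Psmd10 with CLA (0.18, 0.30 and 0.16) were lost under both median-of-ratios scaling (0.06, 0.17 and 0.02) and quantile normalization, and that of Psmg2 also without LPS replicate 1 or 2.

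Psme2b had the largest change of any gene of the family. It stood at 44.1, 45.2 and 18.4 FPKM with LPS alone, 7.34, 10, 11.7, 7.53 and 8.65 with Baf A1 and, with CLA, 5.04 at the lowest, 5.62 at the median and 6.98 at the highest. Every treated library was below the lowest LPS library, which was replicate 3, and the changes were -1.79 (SE 0.2, adjusted p = 1.22e-07) and -2.34 (SE 0.19, adjusted p = 8.22e-10). The sequence of Psme2b is shared with other genes to 69.3%, and Psme2 moved the other way, so how reads were split between the copies bears on both values and was not tested. Psmc3ip was at 0.74, 0.63 and 0.75 FPKM with LPS alone and 0.32, 0.35, 0.28, 0.62 and 0.43 with Baf A1, with no overlap, but its call (-0.29, adjusted p = 0.0468) was lost on leaving out any LPS library. Psma8 was at or under 1.35 FPKM in all LPS, Baf A1 and CLA libraries and rose with CLA by 0.58 (adjusted p = 0.00232), with overlap. Its highest value was 0.51 FPKM with LPS alone and 0.68 with Baf A1 and with dNC. It thus passed the filter only through CLA and siAtg5, the groups where it was high. Its calls in those groups are therefore no support for a rise, although the counts of higher genes include it.

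Set against each other, CLA and Baf A1 differed in which parts of the complex were higher. With CLA 23 genes were higher than with Baf A1 and 8 lower, beside 35.4% and 19% of all genes, and groups did not overlap for 17 and 7 of them, beside 24.5% and 15.1%. The share of higher calls among all genes moved from 65.1% to 51.1% and 54.5% with median-of-ratios scaling and quantile normalization. Then 15 and 19 proteasome genes were higher, beside 2917 and 3090 of all genes. Of the 19S genes 13 of 17 were higher and Psmd8 was lower with CLA, with 5 of 6 ATPases, 2 of 3 base scaffold and receptor genes and 6 of 8 lid genes higher, while of the beta ring 1 of 7 was higher and 2 were lower. The largest differences upward were Psmd14 (0.41, adjusted p = 6.19e-08), Psma8 (0.38) and the lid gene Psmd12 (0.38), and those downward Psme2b (-0.55), Psme1 (-0.35) and Psmd8 (-0.35). That of Psma8 has the limit of the filter given above. Among the cutting subunits Psmb6 (-0.32, adjusted p = 6.79e-05) and Psmb5 (-0.19, adjusted p = 0.0316) were lower with CLA than with Baf A1, and Psmb7 was not called (0.11, adjusted p = 0.101). As a description, the beta to alpha ring ratio of summed FPKM was 1.04 ± 0.02 (SD, n = 5) with Baf A1, 0.889 ± 0.0129 (n = 6) with CLA and 0.901 ± 0.0138 (n = 3) with LPS alone. The Baf A1 libraries lay above all others in this ratio. The ratio of 19S to 20S sums was 0.727 ± 0.008, 0.776 ± 0.012 and 0.819 ± 0.049 in the same order.

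Against dNC, siAtg5 left 27 proteasome genes higher and 6 lower, 58.7% and 13% of the 46, beside 59.6% and 21.6% of all genes. Groups did not overlap for 23 and 6 of them, beside 57.2% and 19.8% of all genes. By role the genes higher and lower were 4 and 1 of the alpha ring, 5 and 1 of the beta ring, 12 and 1 of the 19S particle, 2 and 2 of the activators and 3 and 0 of the chaperones. The median change was 0.21 against 0.34 over all genes. This comparison depends on scaling, as the median over all genes became 0.06 with median-of-ratios scaling and -0.01 with quantile normalization, and the share of higher calls among all genes moved from 73.4% to 54.1% and 49.1%. With median-of-ratios scaling 12 proteasome genes were higher and 18 lower and 10 called genes turned, and with quantile normalization 25 were higher and 8 lower and 3 turned. Relative to all genes the proteasome median was -0.13 as deposited, -0.17 and 0.19. The family's median changed sign under scaling, while the changes of Psmc3, Psmd1, Psmd6 and Psma7 did not. The ATPase gene Psmc3 was at 69.1, 63.4 and 56.7 FPKM with dNC and 124, 128, 118, 123 and 130.2 with siAtg5. All siAtg5 libraries were higher, a change of 0.98 (SE 0.049, adjusted p = 3.34e-14), and the 90.6, 94.6 and 93.3 FPKM of the LPS libraries lay between the groups. Psmd1 was at 41.7, 41.4 and 39.3 FPKM with dNC and 70.9, 71, 74.9, 72.9 and 72.7 with siAtg5, again without overlap (0.81, SE 0.04, adjusted p = 1.86e-14). The lid gene Psmd6 was at 37.3, 35.8 and 37 FPKM with dNC and 60.5, 64.2, 63.6, 70.7 and 65.5 with siAtg5, also apart (0.80, SE 0.054, adjusted p = 5.59e-12). Psma7 was at 113, 93.3 and 91.8 FPKM with dNC and 169, 175, 169, 168 and 176 with siAtg5, with siAtg5 higher in every library (0.79, SE 0.066, adjusted p = 2.35e-10). With median-of-ratios scaling these 4 rises were 0.66, 0.49, 0.49 and 0.47. All dNC libraries were below every other library of the series for Psmc3, Psmd1 and Psmd6. For Psma7 the highest dNC value was 112.55 FPKM and the lowest of all other libraries 112.11. As deposited, these 4 genes were called lower with dNC and higher with siAtg5, both against LPS alone. Low dNC values are therefore part of each rise.

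Of the 6 genes that fell against dNC, Psma2, Psmb1, Psme1 and Psme2 were higher in the dNC libraries than in all others, and the remaining ones were Psme2b and the lid gene Psmd11 (-0.14, a call lost without dNC replicate 1 at -0.09 with adjusted p = 0.138). The alpha gene Psma2 was at 177, 149 and 149 FPKM with dNC and 65, 67.9, 68.2, 71.3 and 69.3 with siAtg5. Its dNC libraries lay above the other 19, and the change was -1.19 (SE 0.077, adjusted p = 2.48e-12). Psmb1 was at 138, 116 and 108 FPKM with dNC and 79.2, 84.2, 78.7, 83.1 and 84 with siAtg5, with dNC again above all others (-0.55, SE 0.064, adjusted p = 6.44e-08). Psme1 was at 508, 429 and 432 FPKM with dNC and 320.3, 313, 315, 329 and 300.1 with siAtg5, without overlap (-0.53, SE 0.055, adjusted p = 8.44e-09). Psme2 was at 691, 577 and 565 FPKM with dNC and 430, 435, 431, 459 and 437 with siAtg5, likewise apart (-0.47, SE 0.052, adjusted p = 2.39e-08), and this was -0.13 with quantile normalization. Psme2b was at 32.4, 26.5 and 32.7 FPKM with dNC and 14.9, 16.5, 14.3, 15.1 and 13.7 with siAtg5, and all siAtg5 libraries were lower (-0.98, SE 0.2, adjusted p = 0.000116). Of the cutting subunits Psmb5 was at 110.2, 91.6 and 75.1 FPKM with dNC and 131, 139.5, 134, 140.1 and 148 with siAtg5. All siAtg5 libraries of Psmb5 were higher (0.60, SE 0.088, adjusted p = 1.76e-06, and 0.28 with median-of-ratios scaling). Psmb6 was at 127, 102 and 95.5 FPKM with dNC and 158, 175, 163, 174 and 168 with siAtg5, also apart (0.64, SE 0.071, adjusted p = 2.38e-08, and 0.32 with median-of-ratios scaling). It was also called lower with dNC than with LPS alone. Psmb7 was at 136, 113 and 119.6 and 107, 117, 108, 115 and 109, which overlapped (-0.14, adjusted p = 0.0579), and with median-of-ratios scaling it was called lower (-0.46). Psme3 was at 42.4, 44.3 and 42.7 FPKM with dNC and 46.9, 42.5, 43, 48.9 and 45.6 with siAtg5, overlapping and not called (0.07, adjusted p = 0.183), and turned to -0.25 with median-of-ratios scaling.

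**Figure D5:**
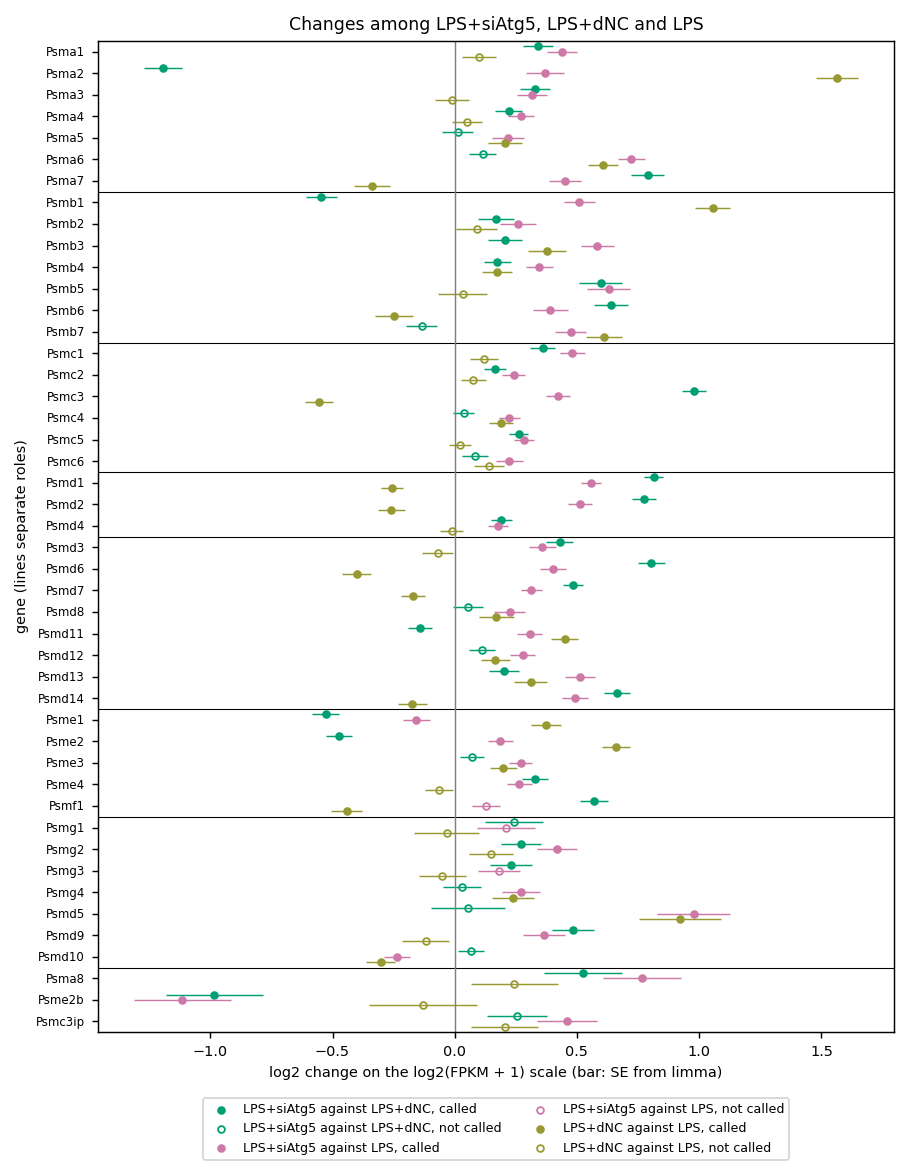
Log2 change of each proteasome gene (vertical axis, grouped by role) between siAtg5 and dNC, siAtg5 and LPS alone, and dNC and LPS alone on the log2(FPKM + 1) scale (horizontal axis), with bars for the SE from limma and filled points for adjusted p under 0.05. Psma2 lies at -1.19 for siAtg5 against dNC and at 1.56 for dNC against LPS alone, and with median-of-ratios scaling 10 called genes of siAtg5 against dNC and 18 of siAtg5 against LPS alone change side.

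The dNC libraries lay outside the range of all others for some genes of the family. Against LPS alone 17 genes were higher and 10 lower with dNC, beside 29% and 28.1% of all genes. Groups did not overlap for 12 genes with dNC above and 8 with dNC below (26.1% and 17.4%), beside 27.5% and 26.1% of all genes. Psma2 (1.56), Psmb1 (1.06) and Psmd5 (0.92) rose most while Psmc3 (-0.56), Psmf1 (-0.44) and Psmd6 (-0.40) fell most. All 3 dNC libraries were above every other library of the series for Psma2, Psmb1, Psme1 and Psme2. They were below every other for Psmc3, Psmd1, Psmd2, Psmd6, Psmd7, Psmd14 and Psmf1. The share of all genes in such a position was not counted, so whether this is particular to the family is not known. Relative to the median 26S subunit of its library, Psma2 was at 1.67 ± 0.0589 (SD, n = 3) with dNC and at 0.623 ± 0.0545 (n = 3) with LPS alone, and Psmb1 at 1.27 ± 0.0141 and 0.674 ± 0.0319. The headers of the dNC columns are also the ones that name no unit, and the 2 lines that the table holds for Plin2, a gene outside the family, differ in these 3 columns and in no others. The cause of the dNC pattern was not tested.

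Against LPS alone, siAtg5 left 40 genes higher and 3 lower, beside 61.2% and 15.6% of all genes. All 31 of the 26S subunit genes matched by the rule were among the higher ones. With median-of-ratios scaling 9 were higher and 6 lower and 18 called genes turned, and with quantile normalization 35 were higher and 4 lower. Of all genes tested 3963 were then higher and 3833 lower with the first scaling, and 3808 and 4221 with the second. The share of higher calls among all genes went from 79.7% to 50.8% and 47.4%. Psmd5 (0.98) and Psma6 (0.72) kept their rise under both scalings (0.65 and 0.37 with median-of-ratios), Psma8 (0.77) went to -0.04 with quantile normalization, and Psme2b (-1.11), Psmd10 (-0.24) and Psme1 (-0.16) were lower. The limit of the filter given above for Psma8 holds here too. Psmc6, which fell with Baf A1, was at 64.5, 64.4, 64.9, 64.7 and 64 FPKM with siAtg5, above the LPS libraries (0.22, and -0.13 with median-of-ratios scaling). The astrocyte, neuron, oligodendrocyte lineage and fibroblast, mural and endothelial marker sums given above were higher with siAtg5 in both of its comparisons, with 10 of 10, 6 of 6, 6 of 6 and 6 of 8 tested markers higher than with dNC. The counts of markers lean on the filter. Sox9, Fgfr3, S100b, Syt1 and Pdgfrb reached 1 FPKM only in siAtg5 libraries and were tested only because they were high there. Markers under the filter were not counted. The part of these cell types in the proteasome values was not tested.

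The difference between the Baf A1 effect (against LPS alone) and the siAtg5 effect (against dNC) was tested as a contrast of its own. In 13 proteasome genes it was above 0 and in 16 below, beside 20.4% and 52.3% of all genes, a balance that turned to 20 above and 6 below with median-of-ratios scaling (14 and 17 with quantile normalization). Of all genes tested 3438 were then called above 0 and 4287 below (3859 and 3692 with quantile normalization). The share above 0 among all calls moved from 28.1% to 44.5% and 51.1% under the scalings. Psma2 (1.37, adjusted p = 2.44e-10), Psmb1 (1.02) and Psme2 (0.84) had the largest differences upward, and Psme2b (-0.81), Psme4 (-0.75) and Psmd6 (-0.71, adjusted p = 3.09e-08) downward. Psme4 fell with Baf A1 and rose with siAtg5, from 31.3, 28.7 and 29.3 FPKM with dNC to 38.7, 36, 38.3, 38.2 and 36.9, a change of 0.33 (SE 0.052, adjusted p = 4.28e-06) that was 0.01 with median-of-ratios scaling, while its difference remained called there (-0.50). The cutting subunits Psmb5 (0.12, adjusted p = 0.392) and Psmb6 (0.07, adjusted p = 0.531) did not pass the test of a difference as deposited. With median-of-ratios scaling their Baf A1 rises were 0.66 and 0.65, while their siAtg5 rises shrank more, as given above. Psmb7, the other cutting subunit, averaged 80.1 FPKM with LPS alone, 110 with Baf A1, 123 with dNC and 111 with siAtg5. Of the 7 beta ring genes 4 were called above 0 in this contrast and 0 below.

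Of 18 measured associated and shuttle factors 4 rose and 4 fell with Baf A1, 11 rose and 2 fell with CLA, and 9 rose and 5 fell with siAtg5 against dNC, where 32.7% and 25.1%, 40.4% and 22.6%, and 59.6% and 21.6% of all genes did. Ube3c, a ubiquitin ligase bound to the proteasome, rose in all 3, by 0.44, 0.63 and 1.05. Nub1, which delivers NEDD8 and FAT10 conjugates to the proteasome, fell by 0.39, 0.65 and 0.69 on the log2 scale, and Fbxo7, a partner of PI31, fell by 0.54, 0.47 and 0.76. With Baf A1 the lid subunit gene Sem1 (0.21) and the shuttle gene Ubqln2 (0.28) rose, and the deubiquitinase gene Uchl5 (-0.54) fell. With CLA the shuttle gene Rad23b (0.43) and Txnl1, a thioredoxin of the 19S particle (0.40), rose. With siAtg5 against dNC Txnl1 (0.89) and the deubiquitinase gene Usp14 (1.05, uncertain as 44.9% of its sequence is shared) rose, and Sem1 (-1.82) fell from the 176 to 184 FPKM of the dNC libraries, where all other libraries had 42.1 to 59.9. Pomp, the maturation factor of the core, was at 138 ± 13.6 FPKM with LPS alone and 159.5 ± 9.47 with Baf A1 (0.21, adjusted p = 0.0634, not called), rose by 0.30 with CLA and fell by 0.28 with siAtg5 against dNC, calls lost with median-of-ratios scaling (0.16) and quantile normalization (-0.16) respectively.

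Of 8 regulators of proteasome transcription 2 rose and 3 fell with Baf A1, 4 rose and 4 fell with CLA, and 2 rose and 4 fell with siAtg5 against dNC, beside the same shares of all genes. Nfe2l1, which encodes NRF1, was at 121 ± 21.1 FPKM (SD, n = 3) with LPS alone and 113 ± 3.39 (n = 5) with Baf A1, not called (-0.08, adjusted p = 0.441), and fell by 0.23 with CLA (adjusted p = 0.0141). With siAtg5 against dNC it rose by 0.32, which was 0.00 with median-of-ratios scaling. Nfe2l2, which encodes NRF2, fell by 0.56 with Baf A1, 0.70 with CLA and 0.15 with siAtg5 against dNC. The small MAF gene Mafk fell in all 3 (-1.05, -1.25 and -0.97), and Maff rose with Baf A1 (0.47) and CLA (0.89) and fell with siAtg5 against dNC (-0.81). Mafg rose with Baf A1 (0.18), a call lost under both scalings (0.13 and 0.14). Ngly1 and Ddi2, whose products process NRF1, rose with CLA (0.28 and 0.42). The size of the Ddi2 rise leans on LPS replicate 3. Ddi2 was at 15.2, 15.2 and 8.29 FPKM with LPS alone and 16.4 to 17.4 with CLA. Ngly1 fell with Baf A1 (-0.16, adjusted p = 0.0286), and Ddi2 rose with siAtg5 against dNC (0.54). Keap1, the inhibitor of NRF2, fell with CLA (-0.36) and with siAtg5 against dNC (-0.66).

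Among genes that supply and activate ubiquitin, the activating enzyme gene Uba1 rose with Baf A1 by 0.46 and fell by 0.20 with siAtg5 against dNC. Uba6, another such enzyme, rose by 0.46 with CLA and 0.79 with siAtg5 against dNC. Rps27a, which encodes ubiquitin fused to a ribosomal protein, rose by 0.61, 0.65 and 0.66 with Baf A1, CLA and siAtg5. The values of Rps27a are uncertain, since 62.4% of its transcript sequence also occurs in other genes.

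The immunoproteasome genes, left out of the family by the rule, did not move as one with Baf A1, where 1 of 3 rose and 1 fell, while 2 fell with CLA and 3 with siAtg5 against dNC. Psmb9, which replaces Psmb6, fell by 0.30 with Baf A1, 0.88 with CLA and 2.29 with siAtg5 against dNC. The dNC libraries of Psmb9 were above all others, at 177 to 237 FPKM against 33.8 to 72.8 elsewhere. With siAtg5 Psmb9 was at 37 to 42.9 FPKM, against 60.8 to 72.8 with LPS alone. Psmb10, which replaces Psmb7, rose by 0.14 with Baf A1 (adjusted p = 0.0274, lost with both scalings at 0.08 and 0.09) and fell by 0.32 with CLA and 0.65 with siAtg5. Psmb8, which replaces Psmb5, was not called with Baf A1 (-0.09, adjusted p = 0.241) or CLA (-0.13, adjusted p = 0.0547) and fell by 0.19 with siAtg5 against dNC, where quantile normalization turned it to 0.07. As a description with no test, the ratio of Psmb6 to Psmb9 was 1.92 ± 0.0287 (SD, n = 3) with LPS alone, 3.88 ± 0.0761 (n = 5) with Baf A1, 4.69 ± 0.261 (n = 6) with CLA, 4.17 ± 0.219 (n = 5) with siAtg5 and 0.537 ± 0.036 (n = 3) with dNC. The ratio of Psmb5 to Psmb8 was 0.212 ± 0.0092, 0.372 ± 0.023, 0.337 ± 0.017, 0.401 ± 0.0193 and 0.232 ± 0.0262 in the same order, so Psmb8 exceeded Psmb5 in every group.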

How the data were processed

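The deposited values are FPKM, per the file headers for 19 columns, while the headers of the 3 dNC columns name no unit and were read as FPKM from their range. Tools named in the submitters' processing notes are StringTie 1.3.1, HISAT2, Bowtie2 2.2.8, fastp 0.18.0 and CASAVA 1.7, without genome build or annotation. Groups come from the labels. Values were analysed as log2(FPKM + 1). The filter of 1 FPKM in 3 or more libraries kept 11070 of 15725 genes, and 1 model of 5 group means over 22 libraries was fitted with limma 3.58.1 in R 4.3.3 (trend and robust), with Benjamini-Hochberg adjustment over all genes. The script was tested on simulated data. Plin2 had 2 lines, and the first was used. Nothing in the labels says that replicates came from separate cultures, so the p-values reflect spread among these libraries alone, part of which may be technical. Shared sequence is the share of 50-base words of a gene's GENCODE transcripts that also occur in another gene. Alternatives were a pseudocount of 0.1, no filter or one of 5 FPKM, median-of-ratios scaling, quantile normalization, a fit of only the groups compared, array weights, a replicate block, and leaving out libraries. The genes, lists and tests were chosen with earlier results of these data known. Named were Psmb5 to Psmb7, Psme1 to Psme3, the 4 largest called changes in each direction without overlap in the 3 comparisons of the design, the 3 largest in the other contrasts, and up to 3 genes per list and direction by adjusted p. Other genes were named after their values were seen. Some genes of the ubiquitin list are not reported here.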

Additional observations from a re-analysis of the deposited data

Results flagged for a closer look

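Single libraries stood apart from their group by Dixon's criterion in 6 of 81 group values of named genes and role sums. Chance alone gives about 1 in 20 for independent values, which these are not, since role sums contain named genes. Only Baf A1, siAtg5 and CLA were tested, so LPS replicate 3 and dNC replicate 1 could not be flagged. CLA replicate 2 was low in 4 of them, with 105.54 FPKM for Psmb7 (others 117.84 to 125.03), 55.35 FPKM for Psma2 (64.5 to 69.84), a summed 1009.31 FPKM for the alpha ring (1078.88 to 1119.32) and a summed 598.13 FPKM for the lid (644.5 to 655.98). Psme2 was high in CLA replicate 1, at 470.21 FPKM (others 453.93 to 456.5), and in siAtg5 replicate 4, at 458.94 FPKM (429.99 to 436.73).

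The Baf A1 effect against LPS alone and the siAtg5 effect against dNC differed by a tested contrast for Psma2 (1.37, limma adjusted p = 2.44e-10), Psmb1 (1.02, adjusted p = 1.37e-09), Psme2 (0.84, adjusted p = 1.31e-09), Psme4 (-0.75, adjusted p = 5.51e-09), Psmd6 (-0.71, adjusted p = 3.09e-08) and Psme2b (-0.81, adjusted p = 0.0138). For Psma2, Psmb1 and Psme2 the dNC libraries were above all other libraries, and for Psmd6 below them.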

How the results depend on the processing

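With median-of-ratios scaling siAtg5 against dNC had 12 genes higher and 18 lower, siAtg5 against LPS alone 9 and 6, the difference of effects 20 and 6, and CLA against Baf A1 15 higher. The counts over all genes for these settings are given above. With only the compared groups fitted dNC against LPS alone had 10 higher, beside 2395 of all genes tested. Among the genes named by rule in the 3 comparisons of the design, directions turned for Psme3 with siAtg5 against dNC under median-of-ratios scaling (-0.25), Psmb8 with siAtg5 against dNC under quantile normalization (0.072), Nfe2l1 with Baf A1 on leaving out 1 library (-0.23 to 0.0063, above 0 without LPS replicate 2), and Psmb8 with Baf A1 on leaving out 1 library (-0.16 to 0.0042, above 0 without LPS replicate 3) or the 3 libraries apart (0.0042). Of the other values of those genes 1583 kept direction and side of the threshold, 19 gained a call and 55 lost it, and 250 values of the main counts stayed within 1.5 times. Leaving out 1 library gave 20 to 34 higher and 3 to 4 lower with Baf A1, 37 to 40 and 3 to 4 with CLA, 25 to 30 and 5 to 7 with siAtg5 against dNC, 21 to 26 and 6 to 8 with CLA against Baf A1, 12 to 19 and 9 to 10 with dNC against LPS alone, 39 to 42 and 2 to 3 with siAtg5 against LPS alone, and 12 to 15 and 13 to 21 for the difference. Same-numbered replicates did not deviate together (correlations of -0.03 to 0.00, -0.04 to 0.09 and -0.11 to 0.00 for Baf A1, siAtg5 and CLA with their comparators), and the replicate block left 24 higher and 3 lower with Baf A1, 27 and 6 with siAtg5 against dNC, 37 and 3 with CLA, 22 and 6 with CLA against Baf A1, 16 and 10 with dNC, 40 and 3 with siAtg5 against LPS alone, and 13 and 14 for the difference. Read depth is unknown, so the counting error of low genes such as Psma8 and Psmc3ip was not estimated.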
